A study of Mus musculus with 14 samples.

Results

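The semaphorins, plexins and neuropilins of the mouse were followed in B16-F10 melanoma tumours as 31 genes, out of 22180 genes with a named probe set on the larger of 2 array designs. They were taken by symbol, as every gene named Sema3 to Sema7 with a letter, Plxna to Plxnd with a digit, or Nrp1 and Nrp2, that had a probe set with exactly 1 gene symbol on both designs. This gave 20 semaphorins (7 of class 3, 6 of class 4, 2 of class 5, 4 of class 6 and 1 of class 7), 9 plexins and 2 neuropilins. All 31 lay above the level used to leave out dim genes, which removed only the lowest 25%. Sema3d, Plxnb3, Sema3a, Sema6c and Sema5a were still dim, with mean log2 levels of 4.98 to 5.68. The array medians were 5.70 to 5.80. Differences near 0 in these dim genes say little. Members were chosen by symbol, and no difference between groups decided which genes of the family were taken. The mean level over the arrays decided only which of several probe sets stood for a gene, which touched Plxna1 and Plxnb1 on the larger design and Sema4d and Sema6b on the smaller one. The family itself was put forward when results for Sema6a and Plxnc1 were already known. Their p-values, and every share of members that counts them, are therefore given as a description.

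B16-F10 is a pigmented melanoma line grown under the skin of C57BL/6 mice. Per the labels, mice with a tumour on each flank received 20 Gy to the right flank on day 8 and the CTLA4-blocking antibody 9H10 on days 5, 8 and 11, and cells were recovered from unirradiated tumours that resisted or relapsed. Tumours of 2 such resistant sublines were measured, Res 499 (7 tumours) and Res 177 (2 tumours), against tumours of sensitive control cells (5 tumours). The larger design held 7 Res 499, 1 Res 177 and 4 control tumours, and the smaller design held 1 Res 177 and 1 control tumour. The labels give no age of the mice. They also do not say whether a subline is a clone, whether the measured tumours were treated, or whether each came from its own mouse. The p-values therefore set each difference only against the spread among these tumours, and part of that spread may be technical. They do not extend to other resistant sublines.

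Semaphorins are secreted or membrane-bound guidance proteins, and plexins are their main receptors. Most secreted class 3 semaphorins bind a neuropilin, which holds them to a plexin of class A, whereas membrane-bound semaphorins of classes 4 to 7 bind plexins directly. Activated plexins act on small GTPases and so change adhesion and the cytoskeleton. In human melanocytes plexin C1 is the receptor of semaphorin 7A and has been described as restraining melanoma.

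The expression values are log2 values from RMA, a method that corrects background, makes the arrays' distributions equal and summarises the probes of each set. A log2 change of 1 is a doubling. Probe sets differ in sensitivity, so levels were compared between tumours for each gene and never between genes. All 7 melanocyte markers were strong in every group, and their mean level was 12.37 to 12.76 in Res 499, 12.52 in Res 177 and 12.50 to 12.56 in control tumours. Other cells differed more. The mean level of 5 leukocyte genes (Ptprc, Cd53, Laptm5, Coro1a and Cd48) was 5.75 to 7.84 in Res 499, 7.05 in Res 177 and 5.90 to 6.36 in control tumours, and this mean served as leukocyte content where it enters a fit as a covariate. The mean of 13 macrophage markers was 6.90 to 9.41, 8.47 and 7.08 to 7.77 in the same groups. Means of 8 fibroblast markers were 6.73 to 8.75 in Res 499, 8.23 in Res 177 and 7.11 to 8.05 in control tumours, and 8 keratinocyte markers stood at 7.43 in the Res 177 tumour against 5.18 to 5.39 in Res 499 and 5.18 to 5.35 in control tumours. The mean of 8 endothelial markers was 7.44 to 8.13 in Res 499, 7.61 in Res 177 and 7.41 to 7.77 in control tumours. For 6 T cell markers it was 5.25 to 6.27 in Res 499, 5.90 in Res 177 and 5.30 to 5.62 in control tumours. Of 5 Schwann cell markers 2 were on the array, with means of 6.64 to 7.13, 6.93 and 6.76 to 7.10 in the same groups. In whole tumours, fewer cells of a type and less RNA per cell cannot be told apart.

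The members that differed most between resistant and control tumours were Sema6a and Sema6b, which were lower in Res 499, and Plxnc1 and Sema6d, which were higher. Promoters of those found in the RefSeq table used are printed here to show the sequence around the start of the genes that differed most. Each runs 5′ to 3′ over 300 bases of GRCm38.p6, from 250 bases before the start to 50 after it. Where the table held 2 promoters of a gene, the first one listed is shown. Capitals mark the searched motifs on either strand, which were the E-box CACGTG bound by factors such as MITF, the GC box GGGCGG, the AP-1 site TGACTCA and the ETS site CCGGAAGT.
Plxnc1 (chr10:94944796-94945095, minus strand): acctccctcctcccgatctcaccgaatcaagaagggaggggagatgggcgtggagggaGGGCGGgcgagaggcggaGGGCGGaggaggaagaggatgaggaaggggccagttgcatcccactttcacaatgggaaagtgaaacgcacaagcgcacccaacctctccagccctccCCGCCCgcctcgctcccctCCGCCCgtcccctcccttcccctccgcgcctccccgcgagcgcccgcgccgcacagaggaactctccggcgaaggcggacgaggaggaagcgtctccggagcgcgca
Sema6d (chr2:124089719-124090018, plus strand): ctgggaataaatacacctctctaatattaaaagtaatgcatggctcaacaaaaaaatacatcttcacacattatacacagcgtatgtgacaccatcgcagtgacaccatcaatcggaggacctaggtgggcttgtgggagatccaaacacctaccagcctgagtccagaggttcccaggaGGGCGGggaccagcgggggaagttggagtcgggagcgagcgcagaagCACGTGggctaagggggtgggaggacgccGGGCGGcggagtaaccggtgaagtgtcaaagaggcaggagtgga
Sema6b (chr17:56140294-56140593, minus strand): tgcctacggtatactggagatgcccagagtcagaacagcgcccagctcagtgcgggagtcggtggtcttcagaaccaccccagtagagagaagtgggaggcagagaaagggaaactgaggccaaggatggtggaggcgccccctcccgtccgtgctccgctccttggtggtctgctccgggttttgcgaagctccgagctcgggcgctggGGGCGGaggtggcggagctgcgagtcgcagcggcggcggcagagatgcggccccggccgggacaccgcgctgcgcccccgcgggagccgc

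The Plxnc1 promoter held 4 GC boxes and none of the other motifs. The Sema6d promoter shown held 1 E-box and 2 GC boxes, and its second promoter held none of the motifs. The Sema6b promoter shown held 1 GC box, and its second promoter held 1 GC box and 1 AP-1 site. The table had 37 promoters for 26 of the 31 genes. A GC box was found in 73% of these 37 and in 35.7% of all 32851 promoters of that length. The E-box was found in 3 of the 37, or 8.11%, against 7.15% of all promoters, and the AP-1 site in 5.41% against 5.2%. The ETS site was in 0 of the 37 and in 3.89% of all promoters. These matches describe the letters in the window only.

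Among the class 6 semaphorins, which are membrane-bound ligands of class A plexins, Sema6a fell in Res 499 tumours. Its level was 7.08 at the lowest, 7.32 at the median and 7.74 at the highest over 7 Res 499 tumours, 7.48 in the Res 177 tumour, and 8.31, 7.88, 8.70 and 8.29 in the 4 control tumours. All 7 Res 499 tumours lay below every control tumour, and so did the Res 177 tumour. The change in Res 499 against control was -0.89 (SE 0.17), a level 1.85-fold lower, with an adjusted p = 0.0482 by limma over 16635 genes. With leukocyte content as a covariate the change was -0.98 and did not pass (limma adjusted p = 0.088). Sema6a was the only member called in this comparison, 1 of 31 (3.23%), where 0.355% of all genes tested were called. Of all genes tested, 0.21% were called lower. Since Sema6a was known when the family was put forward, the share of members called is no evidence about the family.

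Sema6b had 7.17, 7.57 and 8.05 as lowest, median and highest level in Res 499, 7.64 in Res 177, and 7.90, 8.28, 8.52 and 8.43 in control tumours. Thus 6 of 7 Res 499 tumours lay below every control tumour, and the groups overlapped through 1 tumour. The difference was -0.68 (SE 0.15), which did not pass the threshold (limma adjusted p = 0.0792), and -0.67 with the leukocyte covariate. Sema6d, a ligand of plexin A1, went the other way, with 8.56, 9.60 and 10.37 in Res 499, 9.59 in Res 177, and 8.65, 8.46, 8.24 and 8.98 in control tumours. It lay above every control in 6 of 7 Res 499 tumours, and replicate 5 was the exception. The difference of Sema6d was 0.92 (SE 0.28, limma adjusted p = 0.175), and 1.02 with that covariate. Sema6c, the remaining member of the class, differed by -0.03 in Res 499. The class therefore held differences of both signs, from -0.89 to 0.92, with a median of -0.35.

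The class 4 semaphorins, membrane-bound ligands of class B plexins among others, were lower in Res 499 for 5 of 6 genes, with a median difference of -0.23. Sema4c, a ligand of plexin B2, had 9.28, 9.38 and 9.57 as lowest, median and highest level in Res 499, 9.40 in Res 177, and 9.60, 9.79, 9.94 and 9.74 in control tumours. The Res 499 and control groups did not overlap, by a margin between 9.57 and 9.60. The difference was small at -0.36 (SE 0.08), or 1.28-fold lower, and did not pass (limma adjusted p = 0.0869). Sema6a and Sema4c were the 2 members (6.45%) whose groups did not overlap with Res 499 lower, where 1.15% of all genes tested did so, and no member did so with Res 499 higher (1.23% of all genes). In either direction 2.39% of all genes did.

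Sema4g had 6.30, 6.79 and 6.91 in Res 499, 6.76 in Res 177, and 6.90, 7.20, 7.50 and 7.07 in control tumours. The groups touched at 6.91 and 6.90, and the difference was -0.50 (SE 0.15, limma adjusted p = 0.172), or -0.32 with leukocyte content as a covariate. Sema4a, an immune semaphorin made by dendritic cells and T cells, was the class 4 member that lay higher, with 6.71 to 7.25 in Res 499, 6.85 in Res 177, and 6.57, 6.34, 6.75 and 6.68 in control tumours. Above every control lay 5 of 7 Res 499 tumours. The difference was 0.38 (SE 0.12, limma adjusted p = 0.198). Leukocyte content as a covariate brought it to 0.18. Sema4d, the lymphocyte semaphorin CD100 that binds plexin B1, differed by -0.23, and by -0.45 with that covariate (limma adjusted p = 0.142). Sema4b and Sema4f differed by -0.22 and -0.02.

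**Figure D1:**
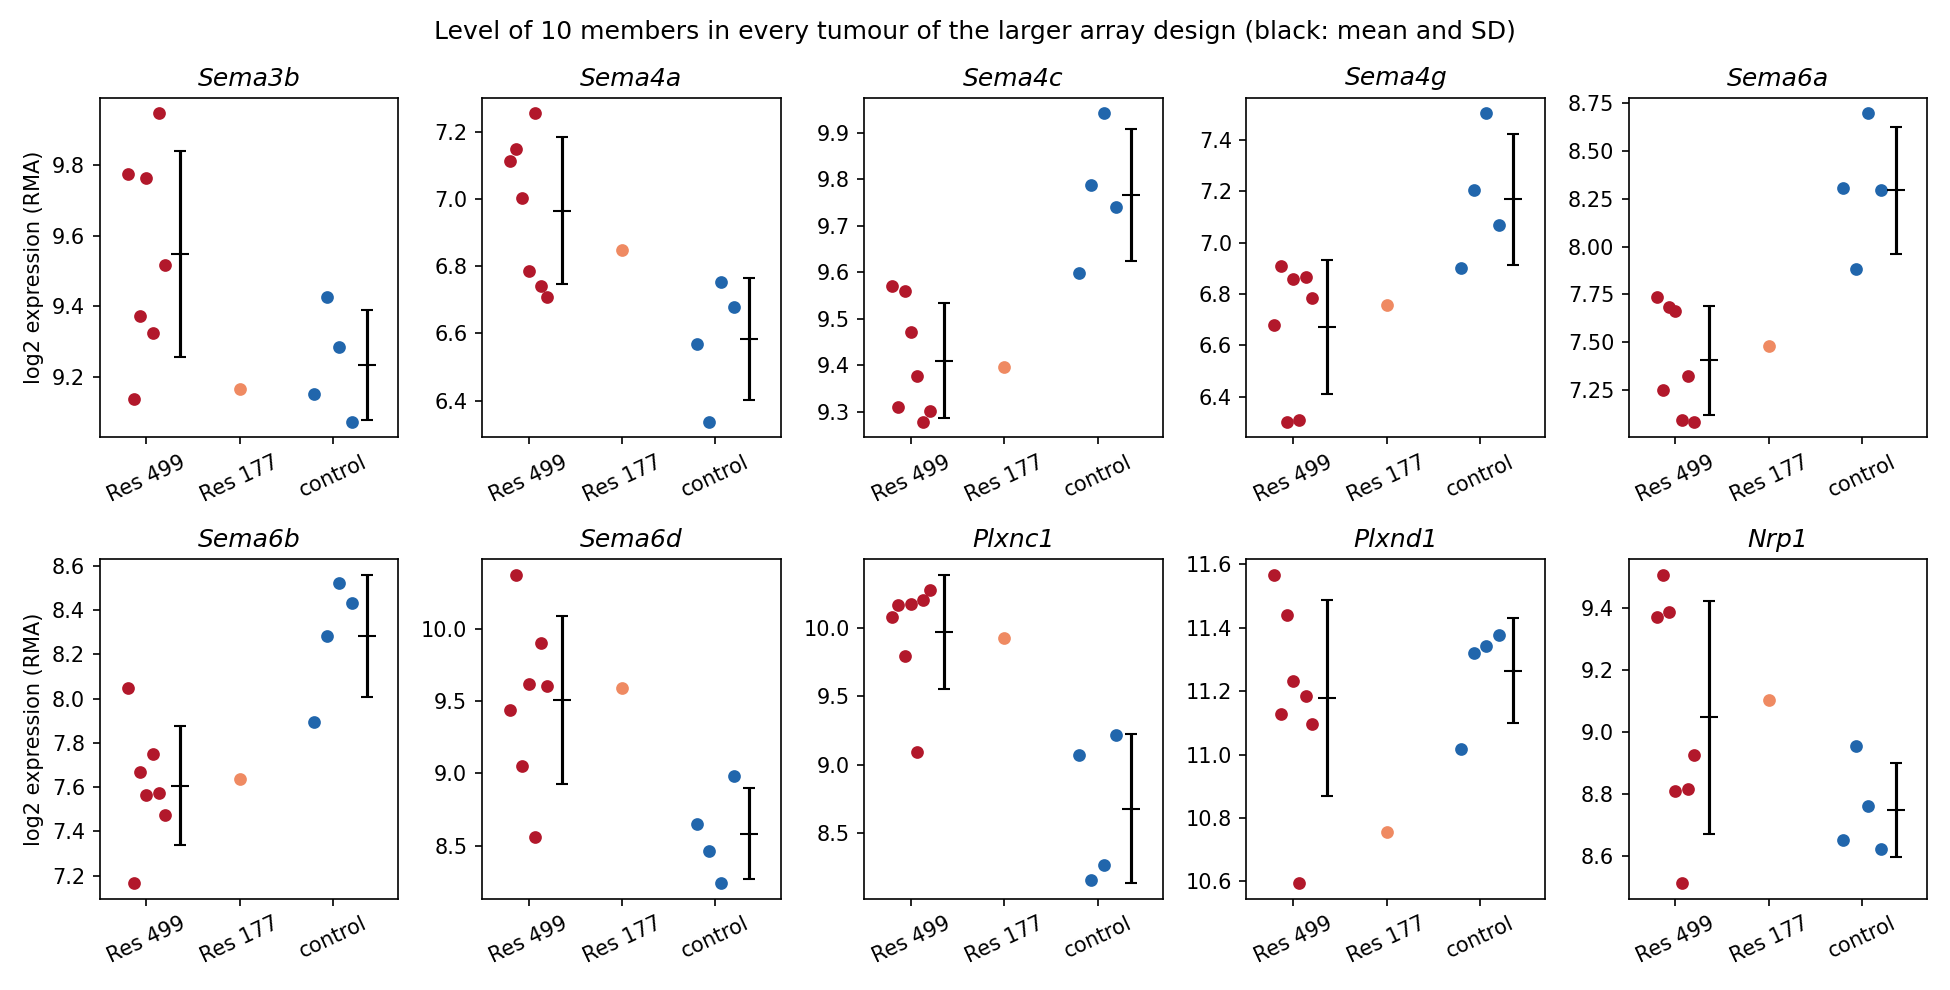
Each point is the log2 expression of 1 tumour on the larger array design, for 10 members, with Res 499 (7 tumours) left, Res 177 (1 tumour) in the middle and control (4 tumours) right; black marks give the mean and SD, and each panel has its own vertical scale, which does not start at 0. For Sema6a and Sema4c all 7 Res 499 points lie below all control points, and for Plxnc1 and Sema6d 6 of 7 lie above them.

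The secreted class 3 semaphorins, which act through neuropilins and class A plexins, held differences between -0.23 and 0.31 in Res 499, 4 of 7 above 0. Sema3b, described as a tumour suppressor in human lung cancer, had 9.14, 9.52 and 9.95 in Res 499, 9.17 in Res 177, and 9.15, 9.43, 9.28 and 9.07 in control tumours. Of the Res 499 tumours 4 of 7 lay above every control, and the difference was 0.31 (SE 0.14, limma adjusted p = 0.38), or 0.51 with leukocyte content as a covariate. Sema3e, the ligand of plexin D1 that needs no neuropilin, differed by -0.23. Sema3g, which is made by endothelial cells, differed by -0.17. Sema3a and Sema3f, the classic ligands of Nrp1 and Nrp2, differed by 0.01 and 0.02. Sema3c differed by -0.02 (-0.18 to 0.27 over the fits that left out 1 tumour), and by -0.43 with leukocyte content as a covariate, and varied widely within each group, from 6.17 to 7.64 in Res 499 and from 6.21 to 7.54 in control tumours. Sema3d differed by 0.01.

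The class 5 genes Sema5a and Sema5b, whose proteins carry thrombospondin repeats, differed by -0.02 and 0.03. Sema7a, the lipid-anchored ligand of plexin C1, had 7.85, 8.26 and 9.15 in Res 499, 8.25 in Res 177, and 8.54, 7.69, 8.06 and 7.94 in control tumours. The groups overlapped broadly, and the difference was 0.28 (limma adjusted p = 0.641). Leukocyte content as a covariate brought it to 0.00.

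Among the 9 plexins, 1 stood apart. Plxnc1 had 9.09, 10.17 and 10.28 as lowest, median and highest level in Res 499, 9.92 in Res 177, and 9.07, 8.16, 8.27 and 9.22 in control tumours. Above every control lay 6 of 7 Res 499 tumours, while replicate 5, at 9.09, lay within the control range. Plxnc1 averaged 9.97 ± 0.42 in Res 499 (SD, n = 7) and 8.68 ± 0.54 in control (SD, n = 4), a difference of 1.29 (SE 0.25), or 2.45-fold. This missed the threshold with an adjusted p = 0.0526 by limma. With leukocyte content as a covariate the difference was 1.44 (limma adjusted p = 0.088).

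The other 8 plexins differed by -0.23 to 0.02 in Res 499. The class A plexins are the signalling partners of the neuropilins and the receptors of class 6 semaphorins, and Plxna1, Plxna2, Plxna3 and Plxna4 differed by -0.05, -0.01, -0.17 and 0.02. The class B plexins bind class 4 semaphorins, and Plxnb1, Plxnb2 and Plxnb3 differed by -0.23, -0.21 and -0.06. The second probe set of Plxna1 differed by -0.07 and that of Plxnb1 by -0.33, in the direction of the first. Plxnd1, a receptor of vascular patterning, had 10.59, 11.18 and 11.57 in Res 499, 10.76 in Res 177, and 11.02, 11.32, 11.34 and 11.38 in control tumours. It differed by -0.09 in Res 499, and by 0.01 without Res 499 replicate 5, and by -0.51 in the Res 177 tumour.

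The neuropilins are co-receptors of class 3 semaphorins and of vascular endothelial growth factors (VEGF). Nrp1 had 8.51, 8.93 and 9.51 in Res 499, 9.10 in Res 177, and 8.65, 8.96, 8.76 and 8.62 in control tumours. The groups overlapped, and the difference was 0.30 (SE 0.18, limma adjusted p = 0.515). Leukocyte content as a covariate brought it to 0.09. Nrp2 varied most among Res 499 tumours of all members, with an SD of 0.88, between 8.42 and 10.86. It had 9.43, 9.89, 9.22 and 9.06 in control tumours. It differed by -0.15, or by -0.75 once leukocyte content was a covariate (limma adjusted p = 0.492). Leaving out single tumours moved it between -0.42, without Res 499 replicate 2, and 0.01, without control replicate 3.

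Over all 31 members, 11 lay higher and 20 lower in Res 499 (35.5% and 64.5%), where 51.7% and 48.3% of all genes tested did. The median difference was -0.03, against 0.01 over all genes. An unadjusted p under 0.05 was reached by 9 of 31 members (29%), where 13% of all genes tested reached it. Lower were 5 members (16.1%, against 6.29% of all genes) and higher 4 (12.9%, against 6.68%). The 9 were Sema6a, Sema6b, Sema4g, Sema4c and Sema3g, which were lower, and Plxnc1, Sema6d, Sema4a and Sema3b, which were higher.

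**Figure D2:**
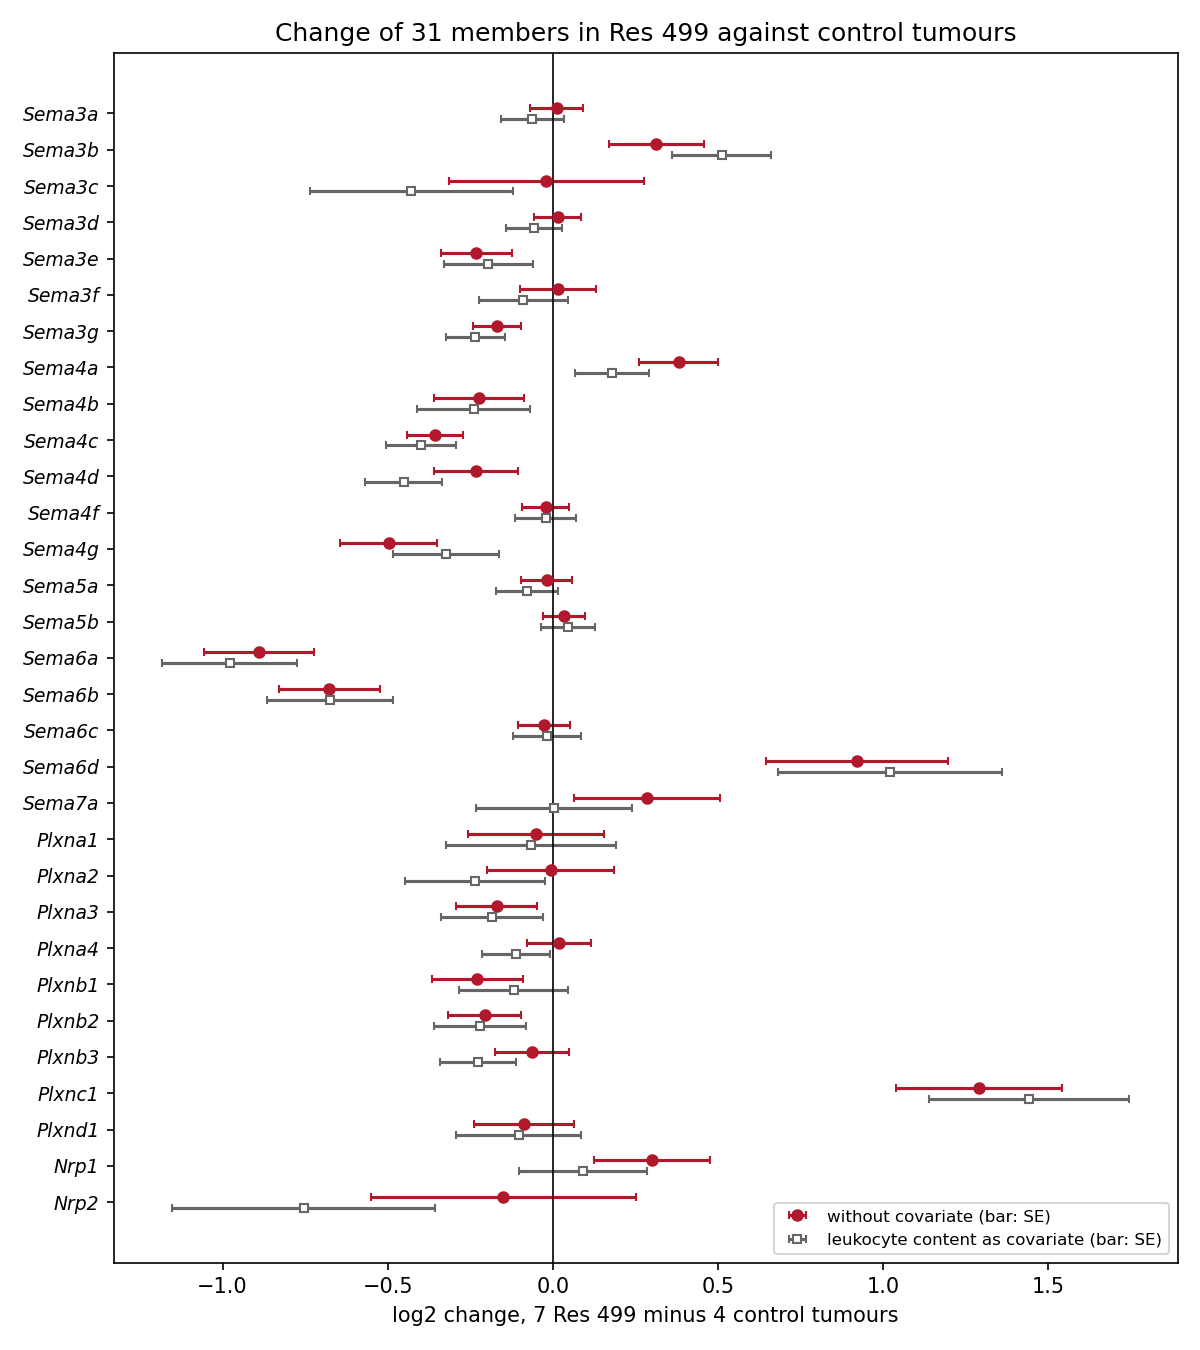
Horizontal axis, log2 change of each of 31 members in 7 Res 499 minus 4 control tumours, with red circles for the fit without a covariate and open squares for the fit with leukocyte content as a covariate; bars are SE. Sema6a (-0.89), Sema6b (-0.68), Sema6d (0.92) and Plxnc1 (1.29) lie farthest from 0 without the covariate, and Nrp2 shifts most between the fits, between -0.15 without and -0.75 with it.

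When the Res 177 tumour was added to the Res 499 tumours as resistant, 8 tumours stood against the same 4 control tumours. The controls are thus shared with the comparison above. This pooled comparison took its 8 resistant tumours as separate replicates, though 7 were Res 499, so its p-values do not extend to other sublines. In it Plxnc1 rose by 1.28 (SE 0.24, adjusted p = 0.0336 by limma, 7 of 8 tumours above every control) and Sema6a fell by 0.88 (SE 0.16, adjusted p = 0.0324 by limma, 8 of 8 tumours below every control). These were 2 of 31 members (6.45%), and 0.613% of all genes tested were called, 0.289% higher and 0.325% lower. Both genes were known when the family was put forward, so this share of members is no evidence about the family. An unadjusted p under 0.05 was reached by 9 members (29%), 3 higher and 6 lower, against 13.4% of all genes, 7.11% higher and 6.26% lower. Above 0 lay 12 members and below it 19, where 52.4% and 47.6% of all genes did. Sema6b differed by -0.67 (limma adjusted p = 0.0553), Sema4c by -0.36 (limma adjusted p = 0.0624) and Sema6d by 0.93 (limma adjusted p = 0.13).

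In the Res 177 tumour of the larger design no member was called by limma, where 0.21% of all genes tested were, and 6 of 31 (19.4%) had an unadjusted p under 0.05 where 4.08% of all genes had. Of these 6, Plxnc1 and Sema5b were higher (6.45%, against 2.56% of all genes), and Sema6a, Sema6b, Sema4c and Sema4f were lower (12.9%, against 1.52%). Above 0 lay 14 members and below it 17, where 53.3% and 46.7% of all genes did. With 1 tumour in this group, the test assumes that it varies like the tumours of the other groups. Its largest differences were Plxnc1 at 1.24, Sema6d at 1.01 and Nrp1 at 0.36 above the control mean, and Sema6a at -0.81, Sema6b at -0.64 and Plxnd1 at -0.51 below it. The values of Res 499 for the same genes were 1.29, 0.92, 0.30, -0.89, -0.68 and -0.09, against the same control tumours.

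The smaller design held a second pair of tumours that shares no array with the first. Its arrays were presumably normalized separately, so only the difference within it was used, and with 1 tumour a group there was no test. Sema6a stood at 8.43 in the Res 177 tumour and 9.70 in the control tumour, 2.41-fold lower. Plxnc1 stood at 10.41 in the Res 177 tumour and 9.52 in the control tumour, a difference of 0.89. Sema6d stood at 9.81 in Res 177 and 8.77 in control, a difference of 1.04. Sema6b stood at 8.18 in Res 177 and 8.72 in control, and its 2 probe sets on this design held identical values and count as 1. The 4 genes that differed most in Res 499 thus had the same direction in this pair.

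A difference of at least 1 on the log2 scale, a limit chosen with the values known, was reached by Sema6a and Sema6d. These were 2 of 31 members (6.45%). Of all 15034 genes tested on the larger design that had a value on both designs, 1.46% reached it. Sema4c differed by -0.40, Sema4g by -0.55, Sema4a by 0.43 and Nrp1 by 0.67, each in the direction seen in Res 499. Sema3b differed by 0.01 and Sema7a by -0.35, where Sema7a had differed by 0.28 in Res 499. Sema4f, at -0.57, and Nrp2, at -0.51, were lower in this Res 177 tumour too. Sema5b, higher in the Res 177 tumour of the larger design, differed by -0.01 here, and Sema3g, lower in Res 499, by 0.09. In all, 22 of 31 members (71%) had the same sign here as in Res 499 on the larger design, where 60.1% of all genes had. The Res 177 tumour of this pair also exceeded its control by 1.14 in the leukocyte genes, by 1.19 in the macrophage markers and by 0.93 in the keratinocyte markers, whose part in these differences was not tested.

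**Figure D3:**
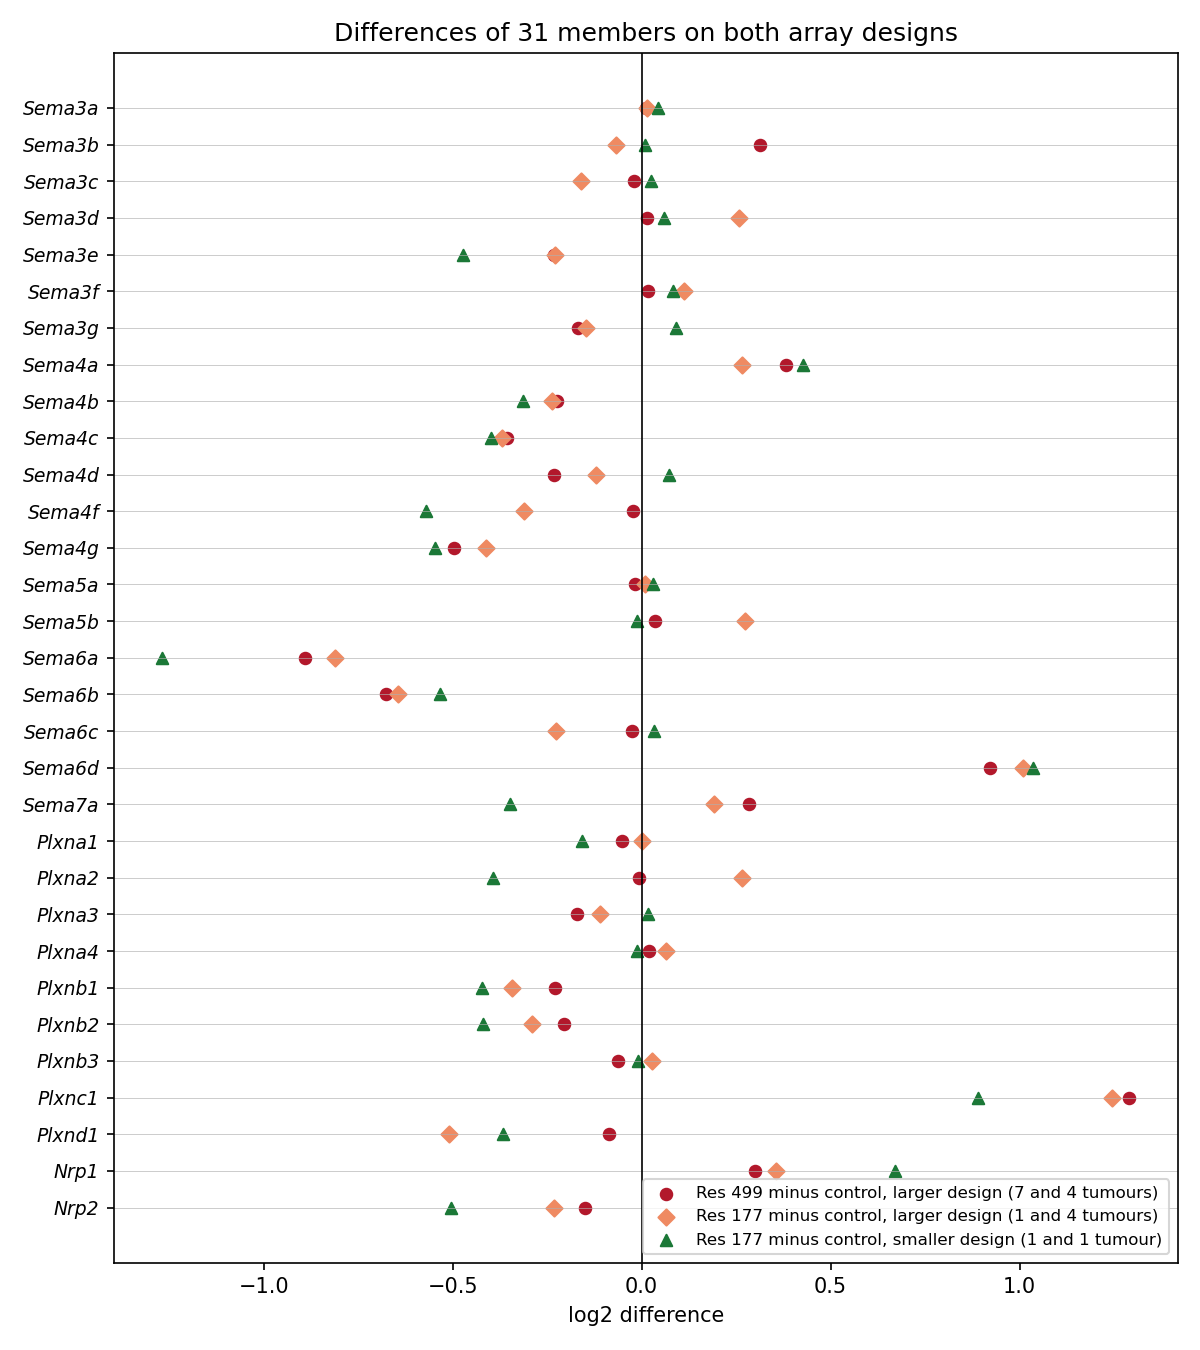
Horizontal axis, log2 difference of each of 31 members for Res 499 minus control (red circles) and Res 177 minus control (orange diamonds) on the larger design, which share 4 control tumours, and for Res 177 minus control on the smaller design (green triangles, 1 tumour each). Plxnc1 lies at 1.29, 1.24 and 0.89, Sema6d at 0.92, 1.01 and 1.04, and Sema6a at -0.89, -0.81 and -1.27.

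Partner genes of semaphorin signalling were followed in 4 lists, which together had 50 genes tested. In Res 499 none of them passed limma's test, where 0.355% of all genes tested did, and 9 (18%) had an unadjusted p under 0.05, where 13% of all genes had. In the pooled resistant tumours 1 of 50 (2%) fell, where 0.325% of all genes were called lower. This was Farp1, an exchange factor from the family of plexin-binding FARP proteins, which had 9.23, 9.60 and 9.82 as lowest, median and highest level in Res 499, 9.65 in Res 177, and levels between 10.00 and 10.28 in control tumours. All Res 499 tumours and the Res 177 tumour lay below every control. Farp1 fell by 0.55 in resistant tumours (SE 0.11, adjusted p = 0.0395 by limma), differed by -0.57 in Res 499 alone (limma adjusted p = 0.052) and by -0.54 in the pair of the smaller design.

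The 29 effectors of plexins and neuropilins had a median difference of 0.02 in Res 499, with 15 above 0 and 14 below. Dpysl2, the collapsin response mediator CRMP2 that carries the signal of semaphorin 3A to microtubules, differed by -0.26 (limma adjusted p = 0.242). The 9 receptor partners had a median of 0.11. The largest differences among them were Tyrobp at 1.21 and Trem2 at 0.66, the adaptor DAP12 and its receptor of myeloid cells, which join plexin A1 in binding semaphorin 6D. Their values with leukocyte content as a covariate were 0.09 and -0.05. The 8 VEGF ligands and receptors had a median of 0.07, and the 4 proteases that process semaphorins a median of -0.06.

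**Figure D4:**
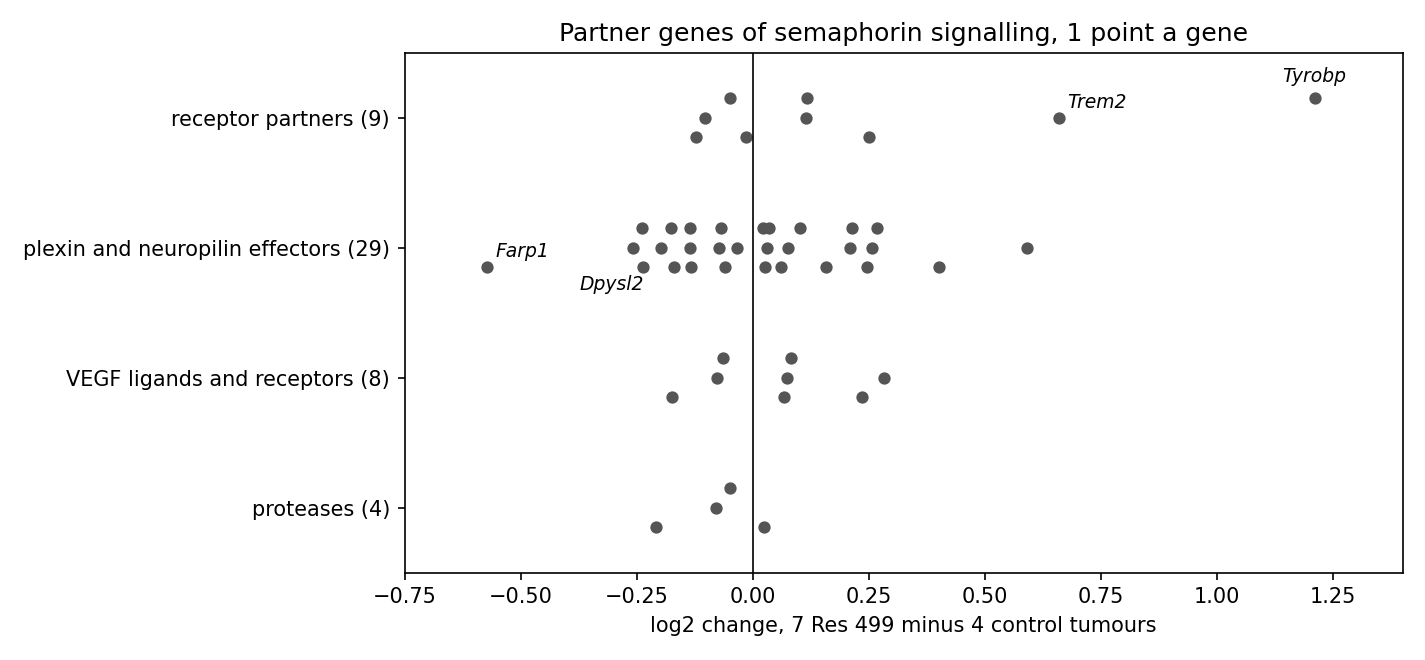
Each point is the log2 change of 1 partner gene in 7 Res 499 minus 4 control tumours, in 4 rows for the lists (number of genes tested in parentheses); the vertical offset within a row has no meaning. Tyrobp (1.21) and Trem2 (0.66) lie farthest right and Farp1 (-0.57) farthest left.

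The calls of both members lay close to the threshold of 0.05 and moved with single tumours. Over 12 fits that left out 1 tumour, the Sema6a change in Res 499 stayed between -1.03 and -0.76 and that of Plxnc1 between 1.12 and 1.47. The limma adjusted p of Sema6a rose above the threshold without Res 499 replicates 1, 3, 4, 5, 6 and 7, at 0.0678, 0.0648, 0.0783, 0.0546, 0.0824 and 0.0775. It did so without control replicates 2, 4 and 5 as well, at 0.117, 0.195 and 0.0742, and with no filter on dim genes, at 0.0589. The Sema6a change itself was larger without Res 499 replicates 1, 3 and 4, at -0.95, -0.94 and -0.93. In these fits 24, 14 and 18 of all genes were called, against 59 as reported. Without Res 499 replicates 5, 6 and 7 the Sema6a change was smaller, at -0.84, -0.88 and -0.84. Plxnc1 passed in Res 499 without Res 499 replicates 2 and 5 and without control replicate 5, with limma adjusted p-values of 0.0468, 0.0151 and 0.0372. With arrays weighted by their fit, Sema6a, Plxnc1, Sema6b and Sema6d all passed in Res 499, at 0.0182, 0.0093, 0.0408 and 0.0324. That setting called 356 of all genes tested, against 59 as reported.

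In the pooled comparison the call of Sema6a was lost without Res 499 replicates 6 and 7 and control replicates 2 and 4, with limma adjusted p-values of 0.0521, 0.0532, 0.0866 and 0.141. That of Plxnc1 was lost without Res 499 replicates 1, 3, 4, 6 and 7, at 0.0637, 0.0567, 0.0619, 0.0549 and 0.055. It was also lost without the Res 177 tumour, at 0.0526, and without control replicates 2, 3 and 4, at 0.0628, 0.107 and 0.165. Sema6b passed without Res 499 replicates 1 and 2, at 0.0406 and 0.0451, and Sema6d without Res 499 replicate 5, at 0.0395. With leukocyte content as a covariate the changes in the pooled comparison were larger, -0.97 for Sema6a and 1.44 for Plxnc1, and neither passed (limma adjusted p = 0.0653 for each). Neither passed with both sublines weighted equally (limma adjusted p = 0.161 for each).

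**Figure D5:**
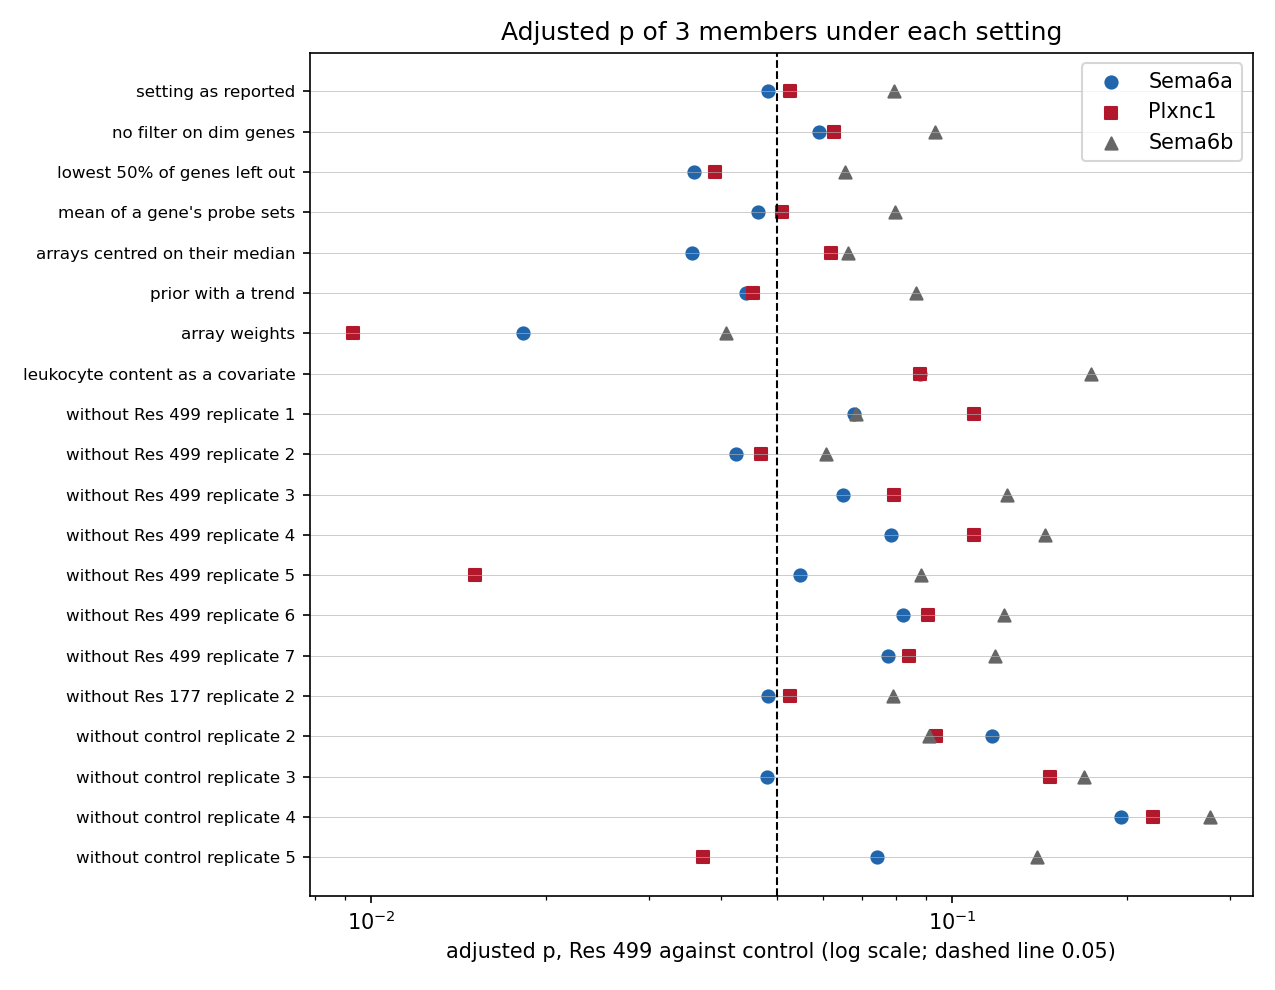
Horizontal axis, limma adjusted p (log scale) for Res 499 against control of Sema6a, Plxnc1 and Sema6b under the setting as reported and 19 alternatives, 1 a row; the dashed line marks 0.05. Sema6a runs from 0.0182 to 0.195, Plxnc1 from 0.0093 to 0.222 and Sema6b from 0.0408 to 0.277.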

How the data were processed

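Total RNA of tumours was hybridised to Affymetrix whole-transcript arrays. The deposited tables hold log2 expression values, which the authors made with RMA and oligo, per the submitters' processing notes. Versions, genome build and probe annotation stay not given in the sources used here; the range of the values shows the log2 scale. The platform annotation named the probe sets, and 0 symbols changed on matching Entrez numbers to RefSeq. Of 41345 probe sets on the larger design 23521 had 1 gene symbol, 1814 several and 16010 none; of 35556 on the smaller design these were 21789, 1621 and 12146. A gene was represented by its probe set of highest mean. Genes in the lowest 25% by mean were left out, and 16635 were tested with limma 3.58.1 (lmFit, eBayes) under R 4.3.3, in 1 fit of 3 groups and 1 fit of resistant against sensitive, with Benjamini-Hochberg adjustment over all of them. Array medians lay between 5.70 and 5.80, and array correlations between 0.977 and 0.993. Arrays have no read depth, so precision is limited by how many tumours there are. The fit was tested on simulated data. The members and lists were chosen with earlier results of these data known. Every member may be named; values by tumour go to members called, the 4 largest changes each way in Res 499 and the 3 each way in Res 177, and partner genes are named if called or among the 2 largest changes each way. Replicates were numbered in the order deposited. Alternatives were 2 other filters, the mean of a gene's probe sets, centring of arrays, a prior with a trend, array weights, leukocyte content as a covariate, equal weight of the sublines, and each tumour left out. Where values by tumour of further members are printed, they were chosen after their values were seen.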

Additional observations from a re-analysis of the deposited data

Results flagged for a closer look

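The 62 sets of values were 31 members in Res 499 and in control tumours of the larger design. Of these, 6 held a tumour far from the others of its group, judged by the gap to the next value over the range. Chance gives about 1 in 20 for a single set. The sets share tumours, so the 6 are not separate events. Res 499 replicate 5 was the lowest in 3 of them. It had 11.18 for Plxna1, where the other Res 499 tumours had 12.05 to 12.50, 5.37 for Plxna3, where the others had 5.81 to 6.10, and 9.09 for Plxnc1, where the others had 9.80 to 10.28. Control replicate 2 stood apart in the other 3. It had 11.97 for Plxna1, where the other control tumours had 12.24 to 12.28, 11.02 for Plxnd1, where the others had 11.32 to 11.38, and 5.78 for Sema5a, where the others had 5.65 to 5.67.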

How the results depend on the processing

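No paired analysis was run, because the labels link no tumour of a subline to a control tumour. In Res 499 the count of members called, 1 as reported, was 0 with no filter on dim genes and 0 with leukocyte content as a covariate, 2 after leaving out the lowest 50% of genes, 2 with a prior that has a trend, 4 with array weights, and 0 to 2 over the fits that left out 1 tumour. In the pooled comparison it was 2 as reported, 4 with centred arrays, 5 with array weights, 0 with leukocyte content as a covariate, 0 with the sublines weighted equally, and 0 to 3 with 1 tumour left out. In Res 177 it was 0 under each of the 18 alternatives run. Over all genes the count in Res 499 was 59 as reported, 47 with no filter and 84 after leaving out the lowest 50%. It was 78 with a prior that has a trend, 356 with array weights and 30 with leukocyte content as a covariate. With 1 tumour left out it was 6 to 196. The settings that called more members, apart from leaving out a tumour, thus also called more genes. In Res 177 it was 35 as reported, 101 with no filter, 2 with the lowest 50% left out and 32 to 37 with 1 tumour left out. In the pooled comparison it was 102 as reported, 330 with array weights, 45 with the covariate, 42 with equal weights and 9 to 141 with 1 tumour left out; centring gave 22 higher and 61 lower against 48 and 54. The cause of these shifts was not tested. Of the values of the 10 members that the naming rule lists by tumour, 542 kept direction and, where tested, side of the threshold. A call was lost in 28 and gained in 17, and 3 turned sign, none of them called. Many of the 542 could not turn sign, so the count does not measure robustness. The filters, the mean of probe sets and the prior with a trend left the changes of these members on the larger design as they were. Leaving out a Res 499 tumour did not move a Res 177 change. The 3 that turned sign were Plxnd1 in Res 499 without replicate 5 (0.010, with -0.17 to 0.010 over the fits that left out 1 tumour), Sema3b in Res 177 with the covariate (0.150), and Sema3b in the smaller design after centring (-0.074).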
